A study of Pyrus communis with 12 samples.

Results

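The last 7 days of the on-tree maturation of the European pear 'Abate Fetel' (Pyrus communis) were described by comparing the flesh of fruit picked at the third harvesting stage (H3, 140 days after full bloom) with that of fruit picked at the fourth (H4, 147 days after full bloom). The comparison rests on 6 of the 12 RNA-seq libraries of the series, 3 biological replicates (R1 to R3) for each of both stages, and was made across all genes. The other 6 libraries belong to the earlier stages H1 and H2, entered the model to share one estimate of the spread, and are shown only where they place the last step. The labels give the 4 stages as harvest weeks 1 to 4, name the flesh as the tissue, and call the replicates biological. By the dates in the paper, H1 and H2 were also 7 days apart, whereas the step from H2 to H3 was longer. Fruit of all stages came from one experimental orchard, were sampled right after picking without storage or treatment, and were kept at a stage only if their chlorophyll absorbance lay near the most frequent value of that picking, so that the date of picking and the class of colour cannot be told apart. No gene annotated in the sources used here marks the flesh, and the tissue label was therefore not checked against markers.

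Pear is a climacteric fruit, in which ripening goes along with a burst of the gaseous hormone ethylene. Ethylene is made by ACC synthase (ACS) and ACC oxidase (ACO), is perceived by receptors such as ERS that repress the response in the absence of the hormone, and acts through transcription factors of the ERF family. Polygalacturonase (PG) and pectin esterase take the pectin of the cell wall apart, while lipoxygenase (LOX), hydroperoxide lyase (HPL), alcohol dehydrogenase (ADH) and alcohol acyltransferase (AAT) lead from fatty acids to the aldehydes, alcohols and esters of the aroma. Many pears soften and develop aroma fully only after picking.

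Of the 45217 genes listed, 14378 had 0 counts in all libraries and 23155 passed the filter of at least 1 CPM (counts scaled to a common library total) in at least 3 libraries. The H3 libraries held 8176929 to 9419007 counts and the H4 libraries 9587843 to 10675582. A level of 3 counts, used as the floor, stood for 0.281 to 0.367 CPM in these 6 libraries. The 10 most abundant genes took 5.58 to 5.95% of the counts in H3 and 6.28 to 6.68% in H4. The p-values set a difference against the spread between replicate libraries, estimated from all 12 libraries, and intervals and floors cover counting error only. In the flesh as a whole, fewer cells of a type and less RNA per cell cannot be told apart.

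Between H3 and H4, 4741 genes were differentially expressed (DEGs, Benjamini-Hochberg adjusted p under 0.05 in the quasi-likelihood test of edgeR), which was 20.5% of those tested. Transcripts of 2540 genes (11.0%) rose and those of 2201 genes (9.51%) fell. Of the former 47 passed the filter only through H4, and of the latter 20 only through H3. Scaling by trimmed means of M values (TMM) set the median log2 fold change of all tested genes at -0.004. With scaling by the total count that median moved to -0.096, and 1619 genes were called higher and 3443 lower, so that the share of higher calls went from 53.6% to 32.0%. Every change below is relative to the TMM scale unless another is named.

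Most of the step consisted of small changes. The median fold of the genes that rose was 1.34 and that of the genes that fell 1.48. In total 729 DEGs changed over 2-fold, of which 293 were higher and 436 lower in H4. Among the large changes the order turned, since 116 genes were higher and 58 lower by over 4-fold, 46 and 12 by over 8-fold, and 20 and 2 by over 16-fold. Without H4 R1 the numbers over 4-fold were 94 and 91, and with total-count scaling 109 and 68.

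The direction of the calls also went with the abundance of the gene. In the quartile of tested genes with the lowest mean level (0.252 to 4.53 CPM over all 12 libraries) 146 genes were called higher and 340 lower in H4, whereas in the highest quartile (40.0 to 14631 CPM) 1177 were called higher and 633 lower. The latter order did not hold with total-count scaling, which gave 728 higher and 1171 lower genes in the highest quartile. The share of genes called was 8.40%, 17.2%, 25.0% and 31.3% from the lowest to the highest quartile and the median fold of the DEGs 2.54, 1.59, 1.36 and 1.27. Over 2-fold changes in the highest quartile were those of 65 higher and 16 lower genes.

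**Figure D1:**
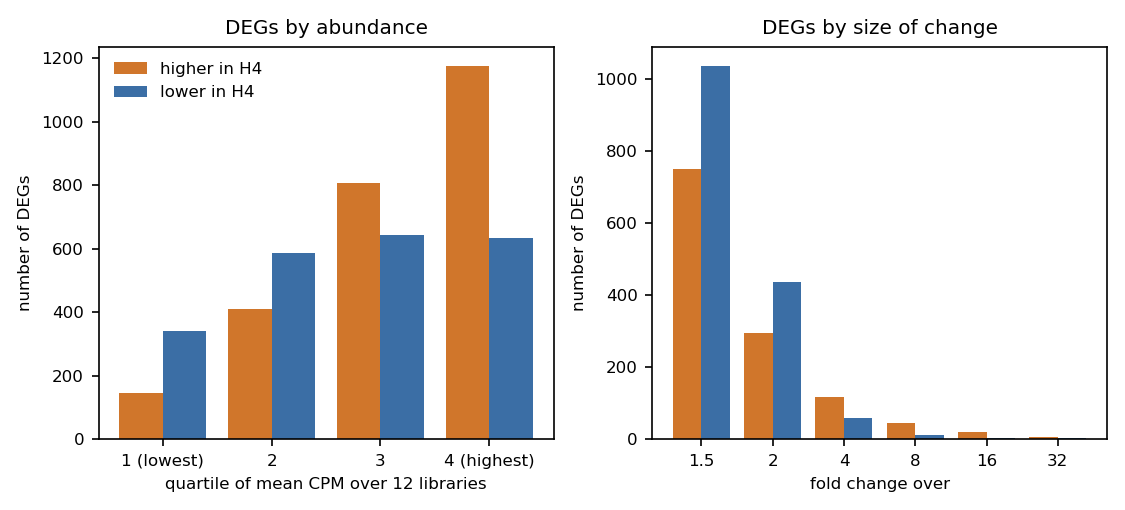
Left, the number of DEGs between H3 and H4 that were higher (orange) or lower (blue) in H4 in each quartile of the tested genes by mean CPM. Right, the number of DEGs whose fold change exceeded the value on the x axis. With TMM scaling the higher calls rise from 146 in the lowest to 1177 in the highest quartile, an order that total-count scaling turned in the highest quartile, and higher genes outnumber lower ones from 4-fold on.

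As raw counts, the genes that rose held 24.6%, 24.0% and 24.0% of H3 R1, R2 and R3 and 30.6%, 31.9% and 32.2% of the H4 libraries in the same order. The genes that fell held 12.8%, 13.0% and 13.0% in H3 and 9.51%, 8.92% and 8.99% in H4. These shares describe genes chosen by the same contrast. Over all genes, 8.50% of the counts would have to move between genes to turn the mean H3 profile into the mean H4 profile. The gain was narrow, with 128 genes holding 50% of it, and the loss broad, with 923 genes holding 50%. Between single libraries the same distance was 7.61 to 10.3% for an H3 and an H4 library, against 3.69 to 4.39% within H3 and 3.94 to 4.57% within H4, and the ranges did not overlap. It was 5.53 to 6.15% between H2 and H3 libraries, and 6.45 to 8.64% between H1 and H2 libraries, where 2 H1 libraries were up to 7.40% apart.

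One H4 library lay closer to H3 than the others. When H4 R1 was left out of the test, its level among the 2349 genes then called higher stood at a median of 72.9% of the way from H3 to H4 on log2(CPM + 1), and among the 2004 genes called lower at 79.3%. The same medians were 108.5% and 96.8% for H4 R2 and 106.2% and 99.9% for H4 R3. For the H3 libraries they were between 0.048% and 14.3%. Without H4 R1 the count of DEGs was 4353, without H4 R2 3455 and without H4 R3 3242.

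**Figure D2:**
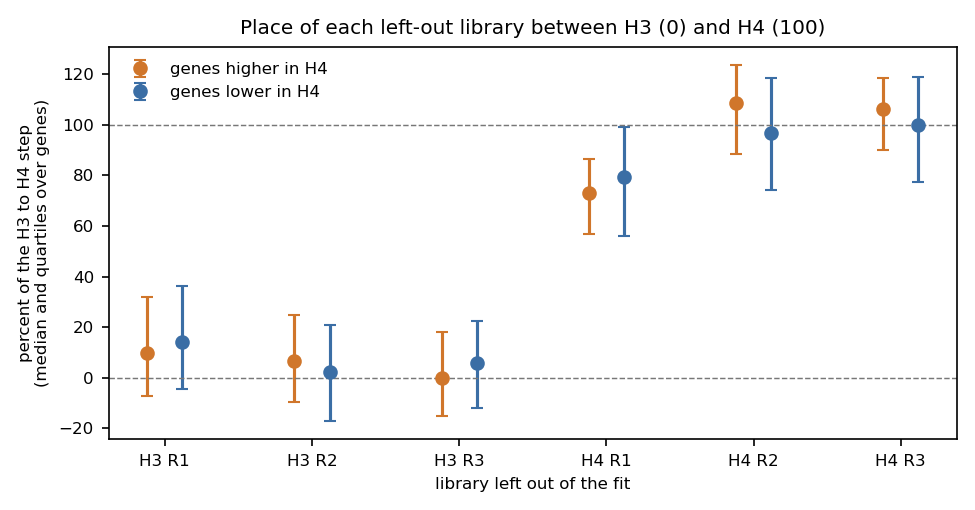
Position of each library between the means of the remaining H3 libraries (0) and the remaining H4 libraries (100), over genes called without that library. Points are medians and bars run from the lower to the upper quartile over genes, in orange for genes higher and in blue for genes lower in H4. H4 R1 sits at 72.9% and 79.3%, below H4 R2 and H4 R3 at 96.8% to 108.5%.

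The onset of ripening was followed in 41 genes that the study names for ethylene, cell wall, aroma, auxin and transcription factors, of which 37 could be tested. Of these 37 genes 15 rose, 2 fell and 20 were not called. However, 7 of the 37, among them 6 of the 15 that rose, passed the filter only through their H4 libraries and could be tested only because they were high there. These 6 were ACS PCP013122, AP2/ERF PCP027843, pectin esterase PCP011895, ADH and the auxin genes PCP012330 and PCP022563, and neither their calls nor a list count or median that holds them is read as support. Of the 30 list genes that passed without H4, 9 rose, 2 fell and 19 were not called. Over all tested genes 11.0% were called higher and 9.51% lower, the shares that belong beside all list counts given here. The 3 libraries of H4 lay above the 3 of H3 in 14 of these 30 genes, beside 20.4% of all tested genes, and below them in 6, beside 18.7%. The study picked most of these genes from these same libraries, so their counts are not independent evidence of a direction. The names rest on protein similarity, and the roles given are those of the families.

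In the ethylene synthesis list (5 genes, 4 tested) 2 genes rose and 2 were not called. The log2 fold change had a median of 1.60 here and of -0.004 in all tested genes. The ACO gene PCP011683 stood at 9.05, 11.1 and 13.4 CPM in H3 and at 83.2, 146 and 137 CPM in H4. Both stages were far apart, and the lowest H4 library exceeded the highest H3 library 6.22-fold. ACO converts ACC to ethylene, the last reaction of the pathway. Its transcript rose by a log2 fold change of 3.45 ± 0.22 (approximate SE), or 10.9-fold, with an adjusted p of 6.8e-07.

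ACS forms ACC, the step usually held to limit the pathway. The ACS gene PCP013122 was counted 7, 7 and 10 times in H3 and 42, 42 and 57 times in H4. Its level rose 5.34-fold from 0.913 ± 0.215 to 4.93 ± 0.987 CPM (SD, n = 3), with a log2 fold change of 2.42 ± 0.51 and an adjusted p of 0.0073, in a test that it entered only through H4. The other ACS gene, PCP011500, had 0 counts in all H3 libraries and 5, 22 and 22 counts in H4, at least 4.96-fold higher against the floor of 3 counts per library. It did not pass the filter, and without that filter its adjusted p was 0.013. H4 R1 was the lowest of the 3 for this gene by a wide margin.

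Neither of the other 2 ACO genes was called. PCP009685 stood at 1.93 to 2.77 CPM in H3 and 2.70 to 4.78 CPM in H4, and the lowest H4 library lay below the highest of H3 (adjusted p = 0.20). PCP022491 gave 8 to 14 counts in H3 and 7 to 13 in H4 (adjusted p = 0.97), and its small difference changed sign when H3 R2 or H4 R1 was left out.

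Among the 2 receptors 1 rose. ERS1 (PCP004450) stood at 17.5, 17.1 and 12.6 CPM in H3 and at 37.6, 60.4 and 56.3 CPM in H4. All H4 libraries were above all H3 libraries, with H4 R1 the closest to them. The rise was 3.27-fold (log2 1.71 ± 0.17, adjusted p = 2.3e-05). ERS2 (PCP026971) had 2.29, 2.64 and 1.96 CPM in H3 and 2.92, 5.60 and 5.84 CPM in H4. Its libraries did not overlap either, but its log2 fold change of 1.05 ± 0.36 missed the threshold (adjusted p = 0.059, 0.023 without H4 R1, and 0.02 to 0.18 over its 20 alternatives, of which 4 called it).

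Of the 6 ethylene response factors 4 were tested, 3 rose and 1 was not called. ERF2 (PCP002056) stood at 1.81, 2.43 and 2.42 CPM in H3 and at 26.0, 36.4 and 42.3 CPM in H4, a 15.6-fold rise (log2 3.96 ± 0.22, adjusted p = 2.1e-07). ERF proteins bind promoters of genes that answer to ethylene. ERF2 was not low throughout before H3. Its H2 libraries read 20.6, 19.5 and 18.6 CPM and its H1 libraries 0.977 to 2.01 CPM, so that H3 was a low point between H2 and H4. The log2 fold change was 3.68 at H1–H2 (adjusted p = 3.5e-06) and -3.13 at H2–H3 (adjusted p = 1.2e-05), the latter sharing the H3 libraries with the last step.

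PCP027843, an AP2/ERF gene, had 0 counts in H3 and 17, 24 and 22 counts in H4, at least 6.42-fold higher (adjusted p = 0.0031, tested only through its H4 libraries), and no more than 2 counts in any library of H1 and H2. The ERF gene PCP011831 went from 2.41, 1.80 and 2.65 CPM to 4.97, 5.60 and 6.05 CPM. Its libraries did not overlap, and it rose 2.42-fold (log2 1.27 ± 0.26, adjusted p = 0.0041). PCP011831 had stood at 1.64 to 2.60 CPM in H1 and 0.603 to 1.29 CPM in H2. It was called higher at H2–H3 too, a step that shares the H3 libraries (log2 1.23, adjusted p = 0.035). PCP014930, another AP2/ERF gene, was at 1.33 to 1.61 CPM in H3 and 2.34 to 2.70 CPM in H4 without overlap, and was not called (adjusted p = 0.13).

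The remaining 2 response factors were at the limit of detection. ERF1 (PCP015040) had 4, 0 and 0 counts in H3 and 0 in all H4 libraries, after 14, 12 and 7 counts in H2. PCP016390 had 7, 0 and 0 counts in H3 and 0 in H4, after 4, 4 and 8 in H2. Neither was tested and no fold is given, since both stages were at or near the floor. A difference between H3 and H4 was not detectable at this depth.

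In the cell wall list (8 genes, all tested) 2 genes rose, 1 fell and 5 were not called, and the log2 fold change had a median of -0.09. PG (PCP006771) stood at 98.8, 78.6 and 78.0 CPM in H3 and at 769, 878 and 877 CPM in H4. The spread within either stage was small beside the gap, and the lowest H4 library was 7.78-fold above the highest of H3. PG cuts the chains of demethylated pectin. Its rise of 9.89-fold (log2 3.31 ± 0.14, adjusted p = 3.3e-08) was the last of a series, as the log2 fold change was 2.99 at H1–H2 (adjusted p = 0.00012) and 3.10 at H2–H3 (adjusted p = 1.5e-06). The last step differed from the first by 0.32 ± 0.41 on the log2 scale (adjusted p = 0.71).

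Pectin esterase removes the methyl groups that keep PG from pectin. The gene PCP011895 had 0 counts in all 9 libraries of H1, H2 and H3 and 50, 116 and 77 counts in H4. It was at least 24.6-fold higher in H4 than in H3 (adjusted p = 0.00045), and entered the test only through its H4 libraries. Again H4 R1 held the fewest counts of the 3.

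The only wall gene that fell was the COBRA-like gene PCP011926, of a family that takes part in the deposition of cellulose. It stood at 69.4, 74.5 and 71.3 CPM in H3 and at 61.5, 60.2 and 56.6 CPM in H4. The libraries did not overlap, but the change was small, with a log2 fold change of -0.27 ± 0.06 (adjusted p = 0.0098), next to -0.36 at H2–H3 (adjusted p = 0.0055).

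The other 5 wall genes were not called. Pectate lyase3 (PCP026151), which cleaves pectin by elimination, read 167 to 183 CPM in H3 and 178 to 196 CPM in H4 (log2 0.11 ± 0.07, adjusted p = 0.28). The xyloglucan endotransglucosylase hydrolase PCP016523, an enzyme that cuts and rejoins xyloglucan, read 42.0 to 44.5 and 43.3 to 48.7 CPM (adjusted p = 0.48). The expansin-like genes, whose family loosens walls without cutting them, gave log2 values of -0.90 ± 0.36 for PCP039813 (adjusted p = 0.10) and -0.35 ± 0.85 for PCP023195 (adjusted p = 0.83), and the latter changed sign without H3 R2. The pectate lyase PCP016914 had 46, 2 and 2 counts in H3 and 0 in H4. Its difference came from H3 R1 alone (adjusted p = 0.16, 0.022 to 0.76 over 20 alternatives).

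All 4 genes of the aroma list were called higher, beside 11.0% of all tested genes. The median log2 fold change was 2.15, beside -0.004 in all tested genes. ADH is among the 4 and was tested only through H4, so neither the count nor the median is read as support. LOX (PCP002320), which oxidises fatty acids, stood at 3.02, 3.17 and 3.34 CPM in H3 and at 9.18, 17.0 and 19.0 CPM in H4. H4 R1 lay between H3 and the other H4 libraries, 2.74-fold above the highest H3 library. The rise was 4.72-fold (log2 2.24 ± 0.32, adjusted p = 0.00043).

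HPL (PCP012365), which splits the products of LOX into short aldehydes, stood at 17.1, 15.3 and 17.8 CPM in H3 and at 49.3, 61.3 and 59.4 CPM in H4. Its stages were again apart in all libraries. It rose 3.38-fold (log2 1.76 ± 0.11, adjusted p = 6e-07).

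ADH (PCP031262) reduces such aldehydes to alcohols. It had 3, 4 and 0 counts in H3 and 84, 151 and 119 counts in H4, or 0.262 ± 0.229 and 12.3 ± 3.03 CPM (SD, n = 3). The H3 values were near the floor, and the fitted fold change (log2 5.46 ± 0.68, 44.1-fold, adjusted p = 0.00015) depends on these few counts and on a filter that ADH passed only through H4. With any H3 library under 3 counts set to 3, the lowest H4 library was still 21.4-fold above the highest H3 library.

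AAT (PCP024687) joins alcohols and acyl groups to the esters of the pear aroma. It stood at 158, 114 and 130 CPM in H3 and at 418, 643 and 615 CPM in H4. The rise was 4.17-fold (log2 2.06 ± 0.15, adjusted p = 1.8e-06). AAT had been called higher at both earlier steps too, with log2 fold changes of 1.53 at H1–H2 (adjusted p = 0.00017) and 0.72 at H2–H3 (adjusted p = 0.015), the latter with the H3 libraries in common.

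**Figure D3:**
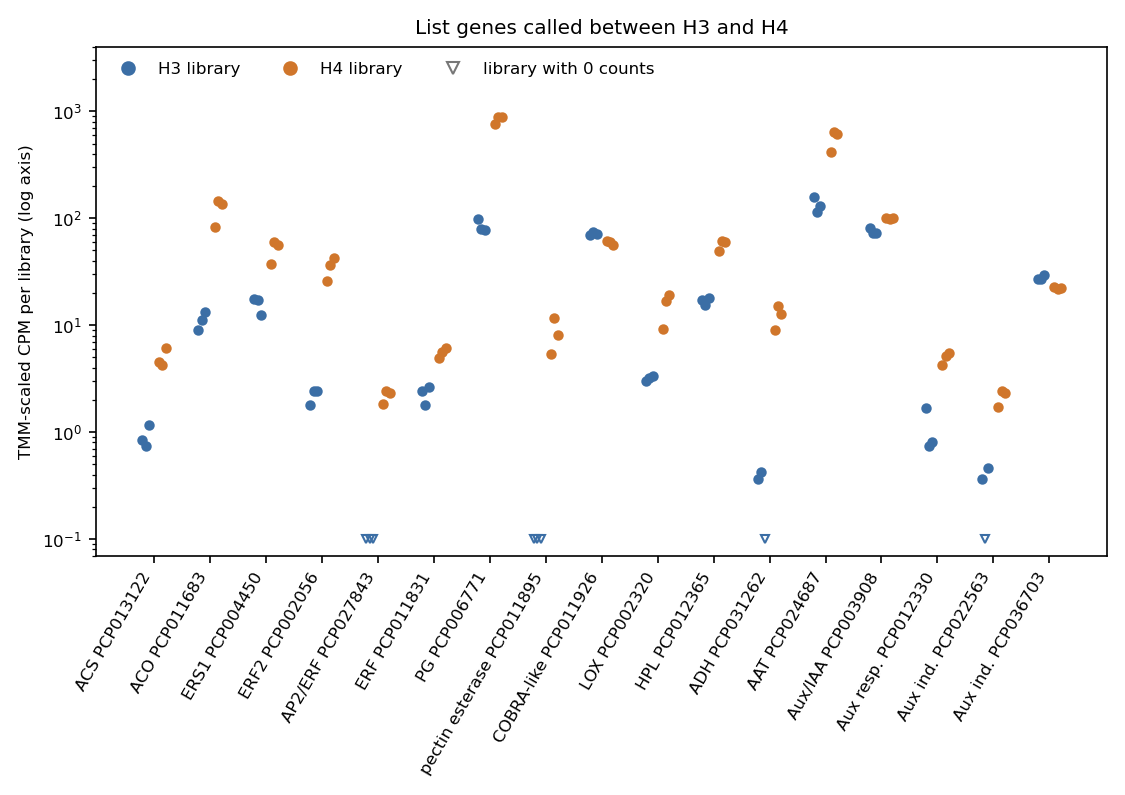
TMM-scaled CPM (log axis) of the 17 list genes called between H3 and H4, with 1 point per library, H3 in blue and H4 in orange, each in the order R1 to R3. Open triangles at the foot are libraries with 0 counts. The 17 genes were chosen by that same call, and the stages overlap in none of them. Over all tested genes, H4 lay wholly above H3 in 20.4% and wholly below in 18.7%. Of the 17 genes 15 are higher in H4, and 6 of these were tested only through H4. COBRA-like PCP011926 and the auxin-induced gene PCP036703 are lower. Over all tested genes 11.0% were called higher and 9.51% lower.

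Of the 10 auxin genes 9 were tested, 3 rose, 1 fell and 5 were not called, and the median was 0.04 on the log2 scale. Aux/IAA proteins repress the auxin response and are degraded in the presence of the hormone. The Aux/IAA gene PCP003908 stood at 80.3, 72.5 and 72.8 CPM in H3 and at 100.2, 98.2 and 100.0 CPM in H4. The H4 libraries were nearly equal, and even H4 R1 did not lag here. The rise was only 1.32-fold (log2 0.40 ± 0.07, adjusted p = 0.0012), next to a log2 fold change of 0.46 at H2–H3 (adjusted p = 0.0021) that shares the H3 libraries.

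The auxin responsive protein PCP012330 went from 1.69, 0.740 and 0.807 CPM in H3 to 4.21, 5.20 and 5.52 CPM in H4. The rise was 4.60-fold (log2 2.20 ± 0.49, adjusted p = 0.0072). It had also been called higher at H2–H3, which shares the H3 libraries (log2 3.51, adjusted p = 0.027), from at most 2 counts per H2 library. PCP022563, an auxin-induced protein, had 3, 0 and 4 counts in H3 and 16, 24 and 22 in H4 (log2 2.94 ± 0.63, adjusted p = 0.0058). Both were genes of few counts that passed the filter only through H4, and the log2 value of PCP022563 was 2.35 without H3 R2 and 3.55 without H3 R3. A further auxin responsive protein, PCP029646, had 1, 0 and 0 counts in H3 and 7, 8 and 9 in H4, a ratio of 22.1 with a 95% counting interval of 3.61 to 909, and did not pass the filter. Without the filter its adjusted p was 0.045.

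The auxin-induced protein PCP036703 fell from 26.8, 26.9 and 29.2 CPM to 22.7, 22.0 and 22.4 CPM (log2 -0.30 ± 0.08, adjusted p = 0.015). The call was lost with DESeq2 and without H3 R3 or H4 R2 (adjusted p = 0.057, 0.067 and 0.051), with a range of 0.0034 to 0.067 over its 21 alternatives. The IAA-like gene PCP012166 was at 146 to 167 CPM in H3 and 153 to 164 CPM in H4 (adjusted p = 0.71) after higher calls at H1–H2 (log2 0.45, adjusted p = 0.0013) and H2–H3 (log2 0.39, adjusted p = 0.0038). The first of these shares no library with the last step.

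PCP019182, another auxin-induced protein, had a log2 fold change of 0.31 ± 0.10 (adjusted p = 0.052), and 4 of its 21 alternatives called it. PCP022634, an Auxin Response Factor, which binds promoters of auxin-regulated genes, had -0.17 ± 0.08 (adjusted p = 0.19). PIN3 (PCP021016), of a family of auxin efflux carriers, had -0.55 ± 0.23 (adjusted p = 0.12). In PCP022634 and PIN3 all H4 libraries were below all H3 libraries. PCP011951 could not be read, since its counts were 118, 3 and 4 in H3 and 11, 5 and 113 in H4.

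None of the 6 other transcription factors was called. The MADS gene PCP007024, of a family with known regulators of fruit ripening in tomato, was at 22.8, 20.0 and 20.0 CPM in H3 and at 26.7, 23.8 and 25.7 CPM in H4. The libraries did not overlap, and the log2 fold change of 0.28 ± 0.10 had an adjusted p of 0.061 (0.033 to 0.21 over 21 alternatives, 4 of which called it). The APETALA2 gene PCP005843 had 0.10 ± 0.08 on the log2 scale (adjusted p = 0.44).

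The 2 NAC genes had few counts, and gave log2 values of -0.20 ± 0.61 (PCP007739, adjusted p = 0.87) and 0.35 ± 0.36 (PCP013432, adjusted p = 0.56). The squamosa binding protein PCP011929 gave -0.38 ± 0.17 (adjusted p = 0.13). In the other squamosa binding protein, PCP036084, H4 R1 stood apart, with 9 counts against 66 and 74 in H4 R2 and R3 and 58 to 64 in H3. Without H4 R1 its log2 fold change went from -0.42 to 0.06. The reference gene of the study's qPCR, PCP030439, read 39.9, 43.0 and 42.9 CPM in H3 and 35.5, 40.1 and 38.3 CPM in H4 (log2 -0.14 ± 0.06, adjusted p = 0.14), and was called lower with total-count scaling (adjusted p = 0.015, range 0.015 to 0.37).

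**Figure D4:**
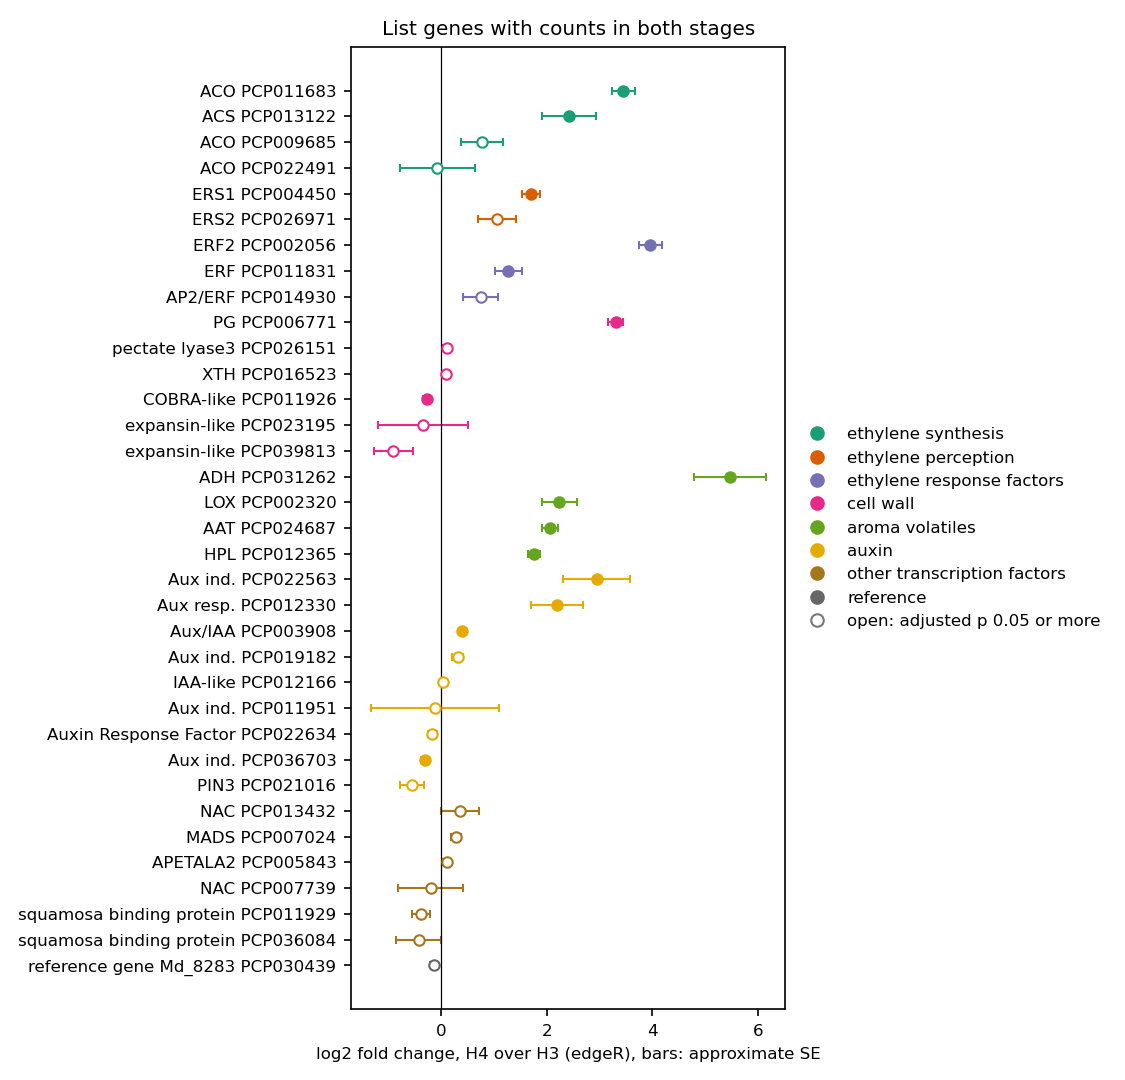
Log2 fold change of H4 over H3 with its approximate SE for the list genes with counts in both stages and for the reference gene, coloured by list. Filled points have an adjusted p under 0.05. The 4 aroma genes lie between 1.76 and 5.46, the latter being ADH, which was tested only through H4. The other transcription factors lie between -0.42 and 0.35 and are all open.

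Across the lists, H4 R1 was the lowest of the H4 libraries in 13 of the 15 genes that rose, H4 R2 in 2 and H4 R3 in 0. Without H4 R1, 13 list genes were called higher and 2 lower, because pectin esterase PCP011895, AP2/ERF PCP027843 and ADH then no longer reached 1 CPM in 3 libraries, while ERS2 was called. All 15 list genes that rose, 6 of which were tested only through H4, had their 3 H4 libraries above all 9 libraries of H1, H2 and H3. Among all DEGs this held for 2100 of the 2540 that rose, and the H4 libraries were below all 9 in 1646 of the 2201 that fell. Over all tested genes the shares were 12.8% and 9.98%.

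The 2 genes with the clearest rise and the 2 with the clearest fall were found by the smallest fold between any H3 and any H4 library, so their values are a description with no test. PCP013494 went from 21.1, 23.2 and 21.6 CPM in H3 to 949, 1657 and 1637 CPM in H4, and PCP009612 from 20.3, 19.9 and 21.3 CPM to 844, 1478 and 1331 CPM. The smallest folds were 41.0 and 39.6, and the fitted log2 fold changes 6.01 ± 0.22 and 5.89 ± 0.21. The supplement of the study pairs both identifiers with one and the same reference transcript, so they may be near-identical copies between which the counting could split reads, and their separate levels are uncertain. Their H1 libraries were at 1.13 to 1.84 CPM, and their H2 libraries at 4.46 to 8.19 CPM.

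On the falling side, PCP042625 had 81, 115 and 99 counts in H3 and 0 in H4, at least 35.4-fold lower. It was not a steady gene, with 0 counts in H1 and 95, 0 and 0 in H2, and it passed the filter only through H3. Its place among the DEGs was lost whenever 1 of the 6 libraries was left out, and DESeq2 gave it no adjusted p. PCP027844 had 87, 89 and 89 counts in H3 and 0 in H4, at least 32.1-fold lower, with 99 to 107 counts in H1 and 0, 77 and 80 in H2. With limma-voom it was no DEG. Each thus also had at least 1 library of H2 with 0 counts.

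Genes that crossed the floor of 3 counts between both stages were also counted, without a test. At H4, 84 genes had over 3 counts in every library after at most 3 in every H3 library, and 119 genes went the other way. The H4 libraries were deeper, and with all libraries thinned to the smallest total the numbers were 61 and 162. Without 1 of the 6 libraries they were 127 to 154 and 178 to 235. Their levels were low, with a median of 0.766 CPM in H4 for the former and 0.680 CPM in H3 for the latter. Only 30 of the 84 and 46 of the 119 genes passed the filter, and 26 and 36 were DEGs. Over all tested genes 20.5% were called. The genes were chosen by these same libraries, so their calls are not read as support. Of the 84 genes 29 had at most 3 counts in all H1 and H2 libraries as well, whereas 55 had exceeded 3 counts in some earlier library. Of the 119 genes 37 had exceeded 3 counts in all 6 libraries of H1 and H2. Pectin esterase PCP011895, AP2/ERF PCP027843 and the auxin responsive protein PCP029646 belonged to the 29 genes, while ACS PCP011500 belonged to the 55, with up to 5 counts in H2.

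The first and the last step of the series each led from one harvest to the next and shared no library. At H1–H2 1645 genes (7.10%) were called, and at H2–H3, which shares the H3 libraries and spanned more days, 1236 genes (5.34%). In the 37 list genes the calls were 10 at H1–H2, 8 at H2–H3 and 17 at H3–H4. Of the last 17 genes, 6 were tested only through H4, so these list counts are not read against each other. Over all tested genes the share called at H3–H4 was 20.5%. Regardless of sign, the typical tested gene moved by 0.15 (median, log2) at H1–H2 and by 0.20 at H3–H4.

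In total 798 genes were called at both the first and the last step, which was 48.5% of the H1–H2 DEGs and 16.8% of the H3–H4 DEGs. Of these, 313 were higher and 251 lower at the later date in both, 134 rose first and fell last, and 100 fell first and rose last. The 2 steps themselves differed in 2462 genes (10.6%), with 1195 more positive and 1267 more negative in the last step. Among the 4741 H3–H4 DEGs the last step differed from the first in 1856 (39.1%), and for the rest a difference was not shown.

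Of the list genes the test of the difference between both steps was passed by 6. In ACO PCP011683, ERS1, ERF PCP011831, LOX and Aux/IAA the last step was the more positive one, and in IAA-like PCP012166 the more negative one. ACO PCP011683 stood at 10.4 to 13.3 CPM in H1 and 7.84 to 11.2 CPM in H2, both overlapping its H3 range, and lay above that range only in H4. LOX was likewise at 1.41 to 3.29 CPM in H1 and 1.57 to 3.28 CPM in H2. In PG, ERF2, HPL and AAT, which were called higher at both H1–H2 and H3–H4, the difference between the steps was not called (adjusted p = 0.71, 0.70, 0.11 and 0.16).

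**Figure D5:**
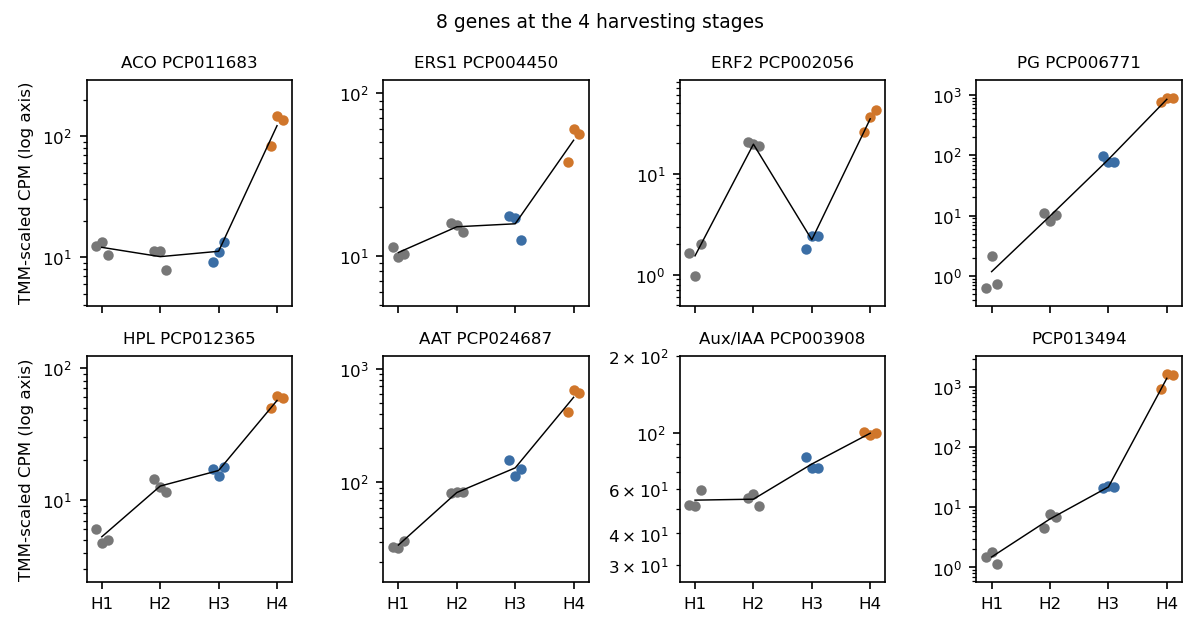
TMM-scaled CPM (log axes) of 8 genes in the 12 libraries, with H1 and H2 in grey, H3 in blue and H4 in orange, and a line through the stage means. ACO PCP011683 stays between 7.84 and 13.4 CPM up to H3, PG climbs at every stage, and ERF2 is high in H2, low in H3 and highest in H4.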

How the data were processed

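Single-end RNA-seq libraries of pear flesh were processed by the authors, who used Scythe and Sickle for trimming, HISAT2 for the alignment on the pear genome, StringTie for quantification and DESeq2 for their own test. The genome build, the step to counts and which releases of DESeq2, StringTie and HISAT2 ran are not given in the sources used here. Labels and paper name different library kits, sequencers and read lengths. Per the labels the libraries were non-directional, so overlapping and antisense genes cannot be told apart, and near-identical copies can exchange reads.

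The deposited library columns were read as raw counts, since they hold whole numbers with different totals, although the table is named for FPKM. The 4 stage columns, treated as a score, were deposited as the authors' means of the 3 libraries and were used in no test. The 12 libraries were grouped by title.

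The filter kept genes that reached 1 CPM in 3 or more libraries. They were tested in R 4.3.3 with edgeR 4.0.16 (TMM, quasi-likelihood test, all 12 libraries, 1 term per stage, Benjamini-Hochberg adjustment, threshold 0.05). The test gives no SE. Those printed are the log2 fold change divided by the root of F and are approximate. CPM are TMM-scaled. Where all libraries of a stage had 0 counts, a bound against 3 counts per library replaces the fold of a named gene. In the counts and medians of DEG folds, that bound was used wherever every library of a stage had at most 3 counts. Genes at or under 3 counts in all libraries of both stages were taken as unchanged there. Replicates differed beyond sampling noise (chi-square per degree of freedom 3.28 to 5.55), so none was merged, and the biological coefficient of variation was 13.0%. DESeq2 1.42.0 and limma 3.58.1 served as alternatives. Tables and figures were made in Python 3.11.15 with matplotlib 3.10.9, pandas 2.3.3 and scipy 1.17.1. The tests were first run on simulated data, with 2-fold changes planted in genes of ample counts and the same spread for every gene. The simulation did not cover changes in genes of few counts or the choice of scaling.

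Named are all genes with an identifier in the text of the paper, its qPCR candidates and reference gene, and the 2 risen and 2 fallen DEGs with the largest smallest fold between H3 and H4 libraries. The members and lists were chosen with earlier results of these data known. The identifiers matched 0 entries of the RefSeq table used for names.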

Additional observations from a re-analysis of the deposited data

Results flagged for a closer look

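For 6 of the list genes, the H3–H4 step differed from the H1–H2 step in the edgeR test of that difference, both steps having 3 libraries at either end. The difference is given as log2 fold change of the last step minus that of the first. It was 3.71 ± 0.34 for ACO PCP011683 (adjusted p = 3.1e-05), where the first step was -0.26 and the last 3.45. ERS1 PCP004450 gave 1.18 ± 0.25 (adjusted p = 0.010), with steps of 0.53 and 1.71. ERF PCP011831 gave 2.38 ± 0.40 (adjusted p = 0.0024), with steps of -1.10 and 1.27, and LOX PCP002320 gave 2.27 ± 0.50 (adjusted p = 0.012), with steps of -0.03 and 2.24.

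Both auxin genes differed by less. Aux/IAA PCP003908 gave 0.391 ± 0.098 (adjusted p = 0.023), with steps of 0.01 and 0.40. IAA-like PCP012166 gave -0.405 ± 0.091 (adjusted p = 0.013), with steps of 0.45 and 0.04.

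The 4 genes without a name were chosen by the gap between their H3 and H4 libraries, so the same difference is given for them as a description with no test. It was 3.93 in PCP013494, 3.88 in PCP009612, -17.7 in PCP042625 and -8.51 in PCP027844. The last 2 are fitted against stages with 0 counts, depend on the prior count and are no bound. In PCP042625 the H2 level rests on 1 library, and in PCP027844 1 of the 3 H2 libraries is at 0.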

How the results depend on the processing

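The count of H3–H4 DEGs (4741) was 3923 with DESeq2, 5626 with limma-voom, 4320 without a filter and 3242 to 5484 without 1 of the 12 libraries, always within 1.5 times. The 729 DEGs over 2-fold became 460 when 5 CPM in 3 libraries were asked for, since fewer genes of low level were tested. The count of genes over 3 counts in every library of one stage and at most 3 in every library of the other was 203. It became 326 to 374 when 1 of the 6 libraries was left out, because fewer libraries have to pass. The genes whose steps differ (2462) numbered 1771 to 2642 without 1 library. The replicate block gave 4558 DEGs (2480 higher, 2078 lower) and 2315 genes whose steps differ. Deviations of same-numbered libraries of H3 and H4 correlated at 0.070, 0.194 and 0.051. Those of libraries with different numbers correlated at -0.132 to 0.072, and H3 R3 correlated best with H4 R1 (0.072). Whether equal numbers mark a pairing was not tested. The share of higher calls with total-count scaling was 32.0%. Chosen after seeing the data, leaving out genes that alternate within H3 or H4 gave 4738 DEGs and 726 over 2-fold.

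Genes that changed sign were all uncalled in either direction, and the cause was not tested. With limma-voom PCP023195 turned to 0.621 and PCP011951 to 0.917, and with total-count scaling PCP012166 turned to -0.0512. Without 1 library, the log2 fold change ranged from -0.209 to 0.146 in PCP022491, from -0.908 to 0.92 in PCP023195, from -2.55 to 3.51 in PCP011951, from -0.401 to 0.065 in PCP007739 and from -0.855 to 0.0598 in PCP036084. Of the other values of named genes, 818 kept direction and side of the threshold, 16 passed it and 10 no longer did. Depth limits what can be read in genes of few counts, since 3 counts are 0.281 to 0.367 CPM.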

Other observations

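Some genes switched between near absence and plain presence among the libraries of 1 stage. With at most 3 counts in one library and at least 30 in another of the same stage, there were 280 such genes in H1, 203 in H2, 231 in H3 and 234 in H4. Within H3, 96, 123 and 108 of them were high in R1, R2 and R3, and within H4, 103, 138 and 94. Of the genes of this kind, 1 of those found in H3 and 2 of those found in H4 were among the H3–H4 DEGs, beside 20.5% of all tested genes. Genes chosen for such a spread within a stage can hardly be called between stages, so no conclusion is drawn from these counts. Among the genes named, 4 were of this kind in some stage. These were pectate lyase PCP016914 in H1 (220, 116 and 0 counts) and H3 (46, 2 and 2), the auxin-induced protein PCP011951 in H3 (118, 3 and 4), and in H2 both genes with the clearest fall, PCP042625 (95, 0 and 0) and PCP027844 (0, 77 and 80). What sets the switch was not tested.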
